A study of Mus musculus with 12 samples.

Results

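The clustered and linker histone genes of the mouse were taken by symbol from the deposited count table: H2ac, H2bc, H3c or H4c followed by a number, and H1f followed by a number. This gave 70 of the 53819 symbols: 11 genes of H1, 18 of H2A, 17 of H2B, 12 of H3 and 12 of H4. Their RNA was counted in 12 libraries from E14, a mouse embryonic stem cell line, in flat (2D) culture. Control cells were untreated (3 libraries), and the other 3 groups of 3 libraries had been treated for 72 h with proline, with budesonide, or with proline and budesonide together. Proline is an amino acid that moves such cells out of the naive pluripotent state, and budesonide is a man-made glucocorticoid. No doses stand in the labels. Nor do they say whether the 3 libraries of a group came from separate cultures, so the spread behind each p-value is that of these libraries of 1 cell line and may be technical.

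Histones H2A, H2B, H3 and H4 form the octamer around which DNA is wrapped, and the linker histone H1 binds where the DNA enters and leaves it. Most of the genes sit in clusters as near-identical intronless copies that are transcribed in S phase. Their main messenger RNA ends just after a conserved stem-loop and carries no poly(A) tail; the stem-loop is bound by the protein Slbp, and the downstream cut is guided by the U7 small nuclear RNA. A minor, tailed form is made when transcription runs past the stem-loop to a polyadenylation signal. H1f0 (histone H1.0, typical of differentiating and resting cells) and H1f10 (H1X) lie outside the clusters and are made as tailed RNA throughout the cell cycle. The libraries were made with a kit primed on poly(A) tails that yields about 1 fragment near the 3′ end of a transcript. The counts below are thus taken to describe mainly tailed histone RNA and not the whole histone messenger pool. RNAs that lack a tail also had counts, given below, and the part of untailed histone RNA was not tested.

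The 3′ ends of the genes are shown because such a kit is primed on tails. Transcripts of GENCODE M21 (build GRCm38; the counts were made on GRCm39, so these positions are not those of the deposited table) were found for 67 of the 70 genes. The stem-loop was searched as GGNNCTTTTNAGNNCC on the transcript strand. It stood in the longest transcript of 39 of the 67 histone genes (58.2%), against 0.148% of all 55341 annotated genes. The most frequent form was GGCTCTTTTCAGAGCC, in 22 genes. The sites of the most counted stem-loop genes of H1, H3 and H4, and of H3c15, which fell furthest with proline, are printed with 5 bases on each side and the stem-loop in capitals.
H1f2 stem-loop, chr13:23739512-23739527, plus strand: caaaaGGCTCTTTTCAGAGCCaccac
H1f4 stem-loop, chr13:23621782-23621797, minus strand: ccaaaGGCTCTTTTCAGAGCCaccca
H3c15 stem-loop, chr3:96238485-96238500, minus strand: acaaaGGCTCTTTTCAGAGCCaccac
H3c3 stem-loop, chr13:23745047-23745062, minus strand: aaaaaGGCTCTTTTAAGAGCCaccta
H4c9 stem-loop, chr13:22040966-22040981, minus strand: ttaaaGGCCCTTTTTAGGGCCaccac
The stem-loops began 24 (H1f2), 40 (H1f4), 30 (H3c15), 24 (H3c3) and 30 (H4c9) nt after the stop codon. The annotated transcripts ran on for another 840, 1153, 377, 74 and 330 nt. A polyadenylation hexamer (AATAAA or ATTAAA on the transcript strand) stood in the last 50 nt of 15 of the 67 genes (22.4%), against 38.3% of all annotated genes. The hexamers of H1f0 and H1f10, which lie outside the clusters, and of H1f2 and H4c9 are printed with 10 bases on each side and the hexamer in capitals.
H1f0 hexamer, chr15:79030483-79030488, plus strand: aaaactttaaAATAAAactggaaagg
H1f10 hexamer, chr6:87980436-87980441, minus strand: cctggggcgcAATAAAcggttccaac
H1f2 hexamer, chr13:23740342-23740347, plus strand: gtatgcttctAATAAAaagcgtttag
H4c9 hexamer, chr13:22040651-22040656, minus strand: ttctgtttacATTAAAagtattctat
These hexamers began 22 (H1f0), 21 (H1f10), 26 (H1f2) and 21 (H4c9) nt before the annotated end. H1f2 and H4c9 thus carried both kinds of end signal, the stem-loop first and the hexamer further on.

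Most counts fell on genes whose annotated transcript has no stem-loop or runs on past it. The 70 genes had 27928 counts of 91.2 M in all. The 28 genes with no stem-loop in the longest transcript held 59.7% of these counts, nearly all in 3 genes: H2bc4 (7851), H1f10 (4360) and H1f0 (3044). The annotated H2bc4 transcript is spliced, with 2 exons in 1156 nt, unlike the usual intronless copy. For 17 of the 28 genes the annotation ends under 60 nt after the stop codon, at the stop codon itself for 13, so a stem-loop further on would not be seen. Introns were not searched, that of H2bc4 among them, and H2bc22 has a stem-loop in another annotated transcript. The class thus describes the annotation, and its genes may still have a stem-loop. The 19 genes whose annotation runs over 100 nt past the stem-loop held 31.6%, led by H1f4 (3138), H1f2 (2462) and H4c9 (1057). The 20 genes whose annotation ends within 100 nt of the stem-loop held 8.74%, with no gene above the 710 counts of H3c3. The plot of counts by annotated 3′ end shows the 6 genes above 1000 counts, of which H4c9 (1057) lies close to H3c3 (710).

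**Figure D1:**
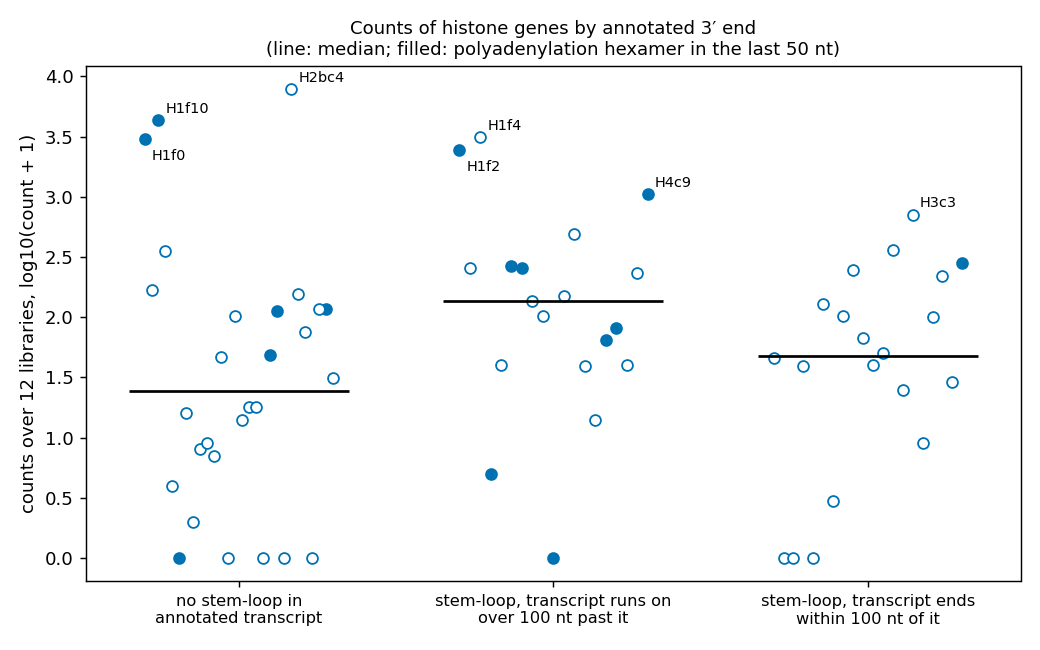
Counts of each matched histone gene summed over the 12 libraries (y axis, log10 of count + 1), in 3 classes of annotated 3′ end (x axis; position within a class has no meaning); filled points have a polyadenylation hexamer in the last 50 nt and the line is the class median. The 6 genes above 1000 counts are H2bc4, H1f10 and H1f0, with no stem-loop in the longest annotated transcript, and H1f4, H1f2 and H4c9, whose annotated transcripts run on past it.

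Libraries held 5.30 to 15.9 M counts. Of the 70 genes, 32 had enough counts to be tested, 26 had between 1 and 75 counts in all, and 12 had none. Among the genes tested were 7 of H1, 3 of H2A, 8 of H2B, 6 of H3 and 8 of H4. A gene was called where the adjusted p of edgeR's quasi-likelihood test (Benjamini-Hochberg over 13852 genes) was below 0.05. Control 3 and budesonide 3 had more tested genes without a count (6.57% and 8.43%) than the other 10 libraries (1.39% to 5.77%), and calls that end without them are named. The embryonic stem cell markers Sox2 (437 to 588 CPM, counts per 1000000 scaled library counts) and Pou5f1 (20.8 to 36.4 CPM) were present in every library. All 8 stem cell markers on the list passed the filter, and they did not stay level: 3 fell with proline, Esrrb (log2 -1.66, adjusted p = 3.68e-08), Zfp42 (-1.36, 6.00e-06) and Nanog (-0.97, 9.62e-05; edgeR), and 2 fell with budesonide, Tdgf1 (-0.93, 1.23e-04) and Utf1 (-0.55, 0.00724; ended without control 3 and budesonide 3, 0.0813, and with a transcript length offset, 0.135). With both against proline 3 rose and 2 fell. The 8 feeder fibroblast markers together made 12.6 to 19.0 CPM in control libraries, 16.5 to 21.9 CPM after proline, 5.93 to 7.75 CPM after budesonide and 4.61 to 9.21 CPM after both. Of the feeder markers Lum and Postn had no count, and the highest value was 17.3 CPM, of Thy1; the part of either marker list in the histone values was not tested. Of RNAs that lack a poly(A) tail, the 18S ribosomal RNA Rn18s took 2.21% to 2.77% of the counts in control libraries and 2.36% to 3.39% in proline libraries, then 2.28% to 6.70% after budesonide and 3.11% to 5.90% after both. Its part in the histone values was not tested.

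Near-identical copies can share or lose reads, and how the counting treated such reads is not given in the sources used here. Every 50-base stretch of the last 300 nt was unique to the gene among annotated transcripts for H1f0, H1f10, H1f2, H4c9 and H3c15, and 96.8% were for H2bc4. None was for H1f4, whose end overlaps the annotated H2bc6 and Gm11398 on the same strand, so the count of H1f4 is uncertain. The share was 64.5% for H3c3, 78.1% for H2ac8 and 36.3% for H4c8. Counts were therefore also summed over all genes of a type, whether or not they passed the filter. Such a sum does not depend on how reads were split between copies of the type. Reads lost in counting would be missing from the sum as well.

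The summed histone counts were lower in all 3 treated groups, and H2B had the largest difference of the 5 types in each, in CPM. The sum over all 70 genes was 452, 463 and 451 CPM in the control libraries and 254, 216 and 233.6 with proline. It was 343, 382 and 361 with budesonide and 221, 241 and 199 with both. The treated libraries all lay below the control libraries, and those with proline or both lay below those with budesonide alone. As a share of all counts, the genes took 0.0446%, 0.0230%, 0.0377% and 0.0218% (group means in the order control, proline, budesonide, both). In such bulk samples, fewer cells that make an RNA and less of it per cell cannot be told apart.

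The H2B sum was 200, 206 and 178 CPM in control, 52.8, 47.1 and 52.0 with proline, 149, 130 and 108 with budesonide, and 60.4, 56 and 47.5 with both. Here the control, budesonide and proline libraries did not overlap, and the group given both overlapped that given proline. H2bc4 alone made up 91.0% ± 1.98 (SD, n = 3) of the control H2B counts, 67.8% ± 8.57 after proline, 92.6% ± 1.02 after budesonide and 78.6% ± 1.32 after both. Without H2bc4 the log2 ratio of the proline to the control H2B sum went from -1.94 to -0.10, so H2bc4 carried the proline difference of this sum. The other comparisons differed. Without H2bc4 the H2B ratio was lower still with budesonide, and it reversed for both against budesonide, as given at the end. The H4 sum was 46.5, 38.4 and 52.0 CPM in control and 24.0, 19.5 and 20.6 with proline. It was 9.02, 28.1 and 11.9 with budesonide and 20.9, 27.6 and 14.1 with both, with every treated library below every control library. Without H4c9, the log2 ratio of proline to control was -0.73 in place of -1.09.

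The H1 sum was 172, 174 and 182 CPM in control, 137, 119 and 132 with proline, 162, 196 and 215 with budesonide and 110, 128 and 116 with both. Budesonide alone overlapped control, and both groups with proline lay below it. The H3 sum ran from 17.1 to 32.0 CPM over the 12 libraries, and only the budesonide libraries (17.1, 22.0 and 20.3) lay wholly below control (23.1, 32.0 and 28.7). The H2A sum, at most 13.3 CPM, was the lowest. Its budesonide libraries (5.64, 6.66 and 4.87) lay below control (10.8, 12.3 and 9.41).

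**Figure D2:**
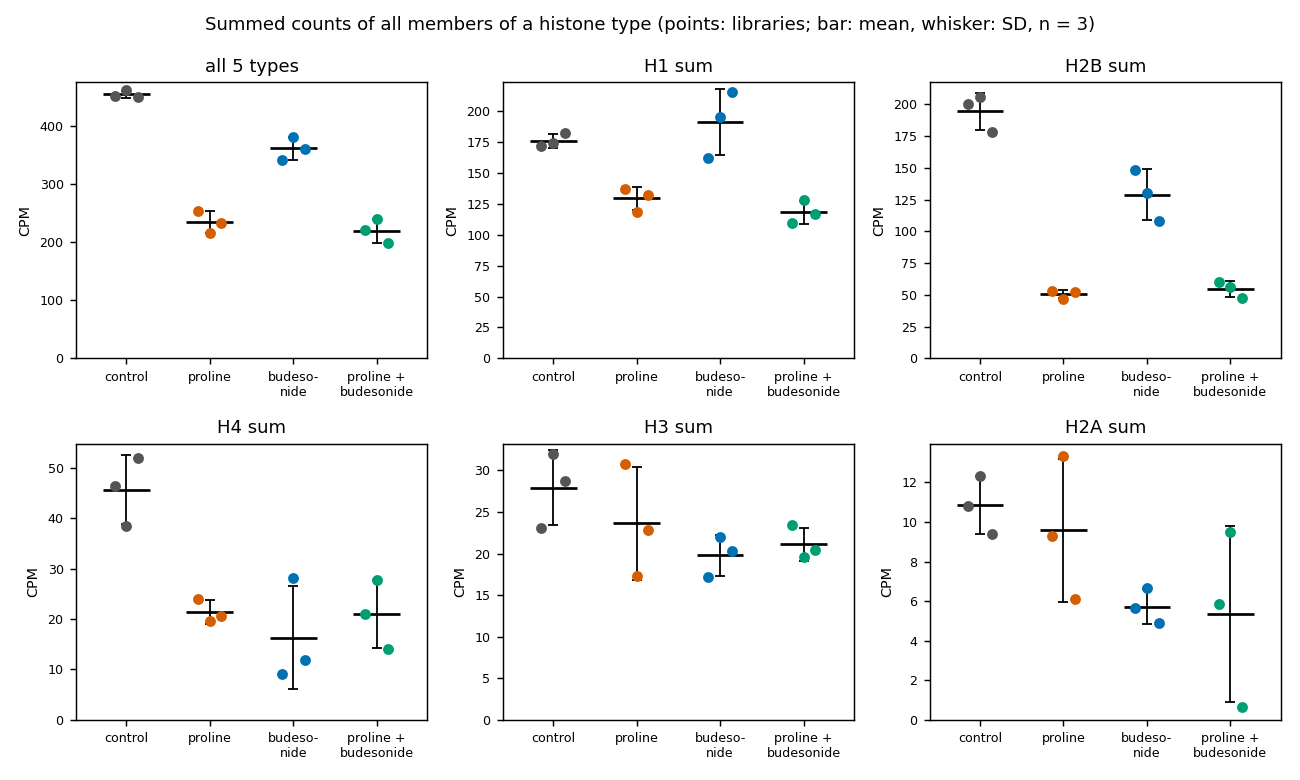
Summed counts of all genes of a histone type per library (y axis, CPM, each panel from 0) in the 4 groups (x axis); points are libraries, bars the mean and whiskers the SD of 3 libraries. The H2B mean is 195 CPM in control and 50.6 CPM with proline, while H1 with budesonide (162 to 215 CPM) overlapped control (172 to 182 CPM).

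Proline against control lowered 5 of the 32 histone genes tested (15.6%; 7.88% of all genes were called, 4.71% lower and 3.17% higher) and raised none. They were the H2B gene H2bc4, the linker genes H1f2 and H1f0, the H4 gene H4c9 and the H3 gene H3c15. The other 27 did not pass the test, the median change over the 32 was -0.14 (log2) against -0.01 over all genes, and 9 of the 32 had groups that did not overlap (26.7% of all genes). Among these 9, H3c15, H2bc21 and H4c11 passed the filter on low counts only because of their control libraries, so their lower values are partly set by the filter.

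H2bc4, which encodes a canonical H2B, was the most counted histone gene. It stood at 186, 187 and 159 CPM in control, 40.8, 30.9 and 31.4 with proline, 140, 120 and 99.4 with budesonide and 47.5, 44.7 and 36.7 with both. The proline libraries all lay under the budesonide libraries, which in turn lay under control. With proline H2bc4 was 5.13-fold lower (log2 -2.36 ± 0.17 SE, adjusted p = 3.5e-09, edgeR; range over 21 alternatives 1.78e-38 to 8.31e-07).

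H1f2, the H1.2 linker gene of the main cluster, stood at 44.5, 42.4 and 53.8 CPM in control and 18.3, 14.8 and 16.7 with proline. It stood at 29.1, 31.6 and 40.8 CPM with budesonide and 16.6, 12.4 and 20.9 with both. No proline library reached the lowest control or budesonide library. With proline it was 2.82-fold lower (log2 -1.50 ± 0.25 SE, adjusted p = 3.01e-04, edgeR; range 3.96e-07 to 0.00276). H1f0 stood at 34.5, 38.5 and 35.2 CPM in control, 20.8, 17.5 and 16.7 with proline, 49.4, 48.4 and 68.1 with budesonide and 23.2, 31.4 and 28.8 with both. The 4 groups of H1f0 did not overlap, with proline lowest and budesonide highest. The fall with proline was 1.96-fold (log2 -0.97 ± 0.22 SE, adjusted p = 0.00648, edgeR; range 6.73e-04 to 0.0399).

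H4c9, an H4 gene, stood at 30.3, 17.3 and 26.5 CPM in control, 11.1, 7.25 and 8.06 with proline, 5.08, 10.7 and 5.53 with budesonide and 8.61, 12.4 and 4.94 with both. All 9 treated libraries lay below the lowest control library, and the treated groups overlapped. The fall with proline was 2.79-fold (log2 -1.48 ± 0.40 SE, adjusted p = 0.0204, edgeR). It ended without control 1 (adjusted p = 0.112), control 3 (0.0570), proline 2 (0.0856) or proline 3 (0.0844), in a range of 0.00761 to 0.112.

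H3c15, an H3 gene of the chromosome 3 cluster, had 33, 43 and 26 counts in control and 0, 0 and 2 with proline. With budesonide it had 0, 7 and 26 counts, and with both 0, 0 and 13. The budesonide libraries ran from 0 to 3.42 CPM, all below the lowest control library (4.01 CPM). H3c15 passed the filter on low counts only because of its control libraries, so its fall is partly set by the filter. Summed over the libraries and scaled to their totals, control exceeded proline 83.9-fold (95% exact interval 22.6 to 702, counting error only; adjusted p = 0.0495, edgeR). This call is close to the threshold, and leaving out any 1 of the 6 libraries ended it (adjusted p = 0.103, 0.162 and 0.0651 without control 1, 2 and 3, and 0.171, 0.139 and 0.0542 without proline 1, 2 and 3; range 0.00488 to 0.171), as did leaving out budesonide 2 (0.0516), total counts with no scaling (0.0512) and a transcript length offset (0.0542).

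Not all linker genes were lower with proline. H1f4 (H1.4), in the same cluster as H1f2, had 43.0, 32.8 and 49.8 CPM in control and 46.8, 34.0 and 57.5 with proline, which overlap (log2 0.14 ± 0.29 SE, adjusted p = 0.87, edgeR). H1f10 overlapped as well, with 38.6, 49.5 and 37.9 CPM in control and 36.2, 43.5 and 28.9 with proline (log2 -0.21 ± 0.22 SE, adjusted p = 0.69). H3c3, the most counted H3 gene, had 4.75, 3.66 and 7.40 CPM in control and 13.6, 9.18 and 8.61 with proline. Its groups did not overlap, proline being higher, but the change did not pass the test (log2 0.99 ± 0.51 SE, adjusted p = 0.30, edgeR).

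**Figure D3:**
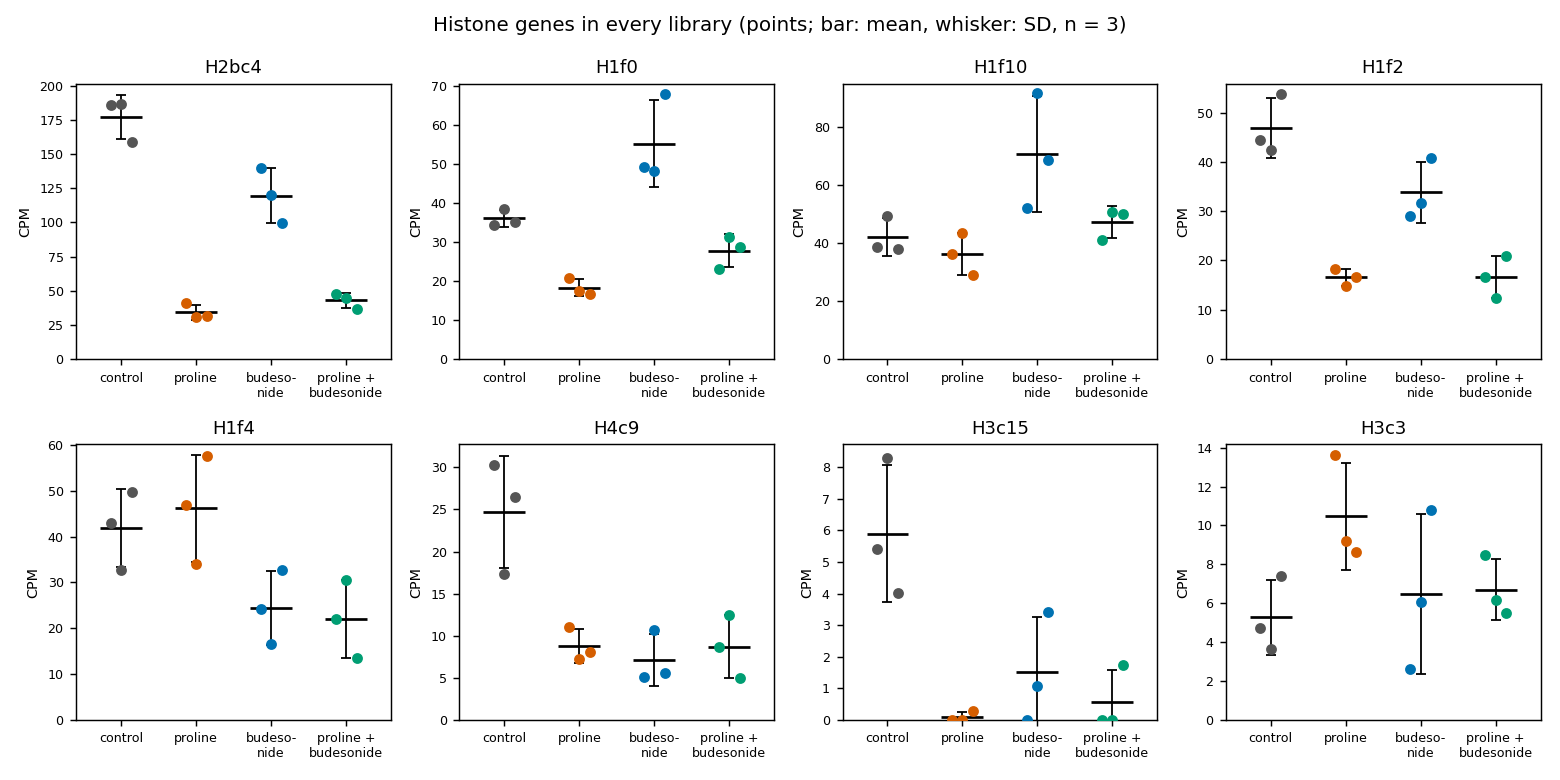
CPM of 8 histone genes (y axis, each panel from 0) in the 12 libraries by group (x axis); points are libraries, bars the mean and whiskers the SD of 3 libraries. H2bc4 and H1f2 are low in all 6 libraries with proline, H1f0 and H1f10 are highest with budesonide, and H4c9 is low in all 9 treated libraries.

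The remaining genes rest on few counts. H2ac8, the most counted H2A gene, had 3.27, 5.78 and 5.86 CPM in control, 3.93, 6.07 and 2.22 with proline, 0.677, 2.79 and 0.922 with budesonide and 2.61, 2.05 and 0 with both. Its libraries with budesonide or both lay below control, and neither change passed the test (adjusted p = 0.34 and 0.38, edgeR). H3c4 ran from 0.132 to 10.6 CPM over the 12 libraries, with every group overlapping control, and H3c1 from 1.75 to 7.07. H4c8 ran from 0 to 10.5 CPM and lay below control with proline (0.785, 4.14 and 0.695 against 4.58, 8.29 and 10.5; adjusted p = 0.36). H2ac4, H2ac22, H2bc6, H2bc12 and H4c4 all stayed at or below 6.58 CPM. Of the 12 genes with no count in any library, 9 had an annotated transcript, and for 5 of these (H2ac18, H2ac19, H2ac24, H2bc23 and H3c14) no 50-base stretch of the last 300 nt was unique to the gene, so a missing count there does not show a missing RNA.

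Budesonide against control raised 1 of the 32 genes, the linker gene H1f10, and lowered 2, H4c9 and H2bc4 (9.38%; 6.51% of all genes were called, 2.51% higher and 4% lower). The other 29 did not pass the test. The median change over the 32 was -0.78 (log2), with 25 below 0, against 0.01 over all genes. Short transcripts as a whole were also lower: the median was -0.19 over the 1227 tested genes of at most 1000 nt, a class that holds 19 of the 32 histone genes, and 0.21 over those above 8000 nt. The part of transcript length in the histone median was not tested. Groups did not overlap for 12 of the 32 genes (23.7% of all genes), 9 lower and 3 higher. Among the 9, H2bc21, H4c11 and H3c15 passed the filter on low counts only because of their control libraries. Their lower values, also counted in the 25, are thus partly set by the filter.

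H4c9 was 3.50-fold lower with budesonide (log2 -1.81 ± 0.40 SE, adjusted p = 0.00753, edgeR; range 6.93e-04 to 0.0533). This call ended only without control 3 and budesonide 3 together (0.0533) among the 21 alternatives. H2bc4 was 1.48-fold lower (log2 -0.57 ± 0.16 SE, adjusted p = 0.0357, edgeR). The H2bc4 call ended without control 1 (0.125), control 2 (0.132), budesonide 2 (0.0796), budesonide 3 (0.176) or the second library of both compounds (0.0513), without control 3 and budesonide 3 (0.114), with total counts and no scaling (0.0870), with only the groups compared (0.0588), and with a transcript length offset (0.236), in a range of 0.0132 to 0.236.

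H1f10 stood at 52.1, 91.9 and 68.6 CPM with budesonide and 41.1, 50.7 and 50.02 with both. Every budesonide library lay above every control library, with budesonide 1 the closest to them. H1f10 was 1.69-fold higher (log2 0.75 ± 0.22 SE, adjusted p = 0.0383, edgeR; range 0.0118 to 0.206). The call ended without control 1 (0.128), control 3 (0.120), budesonide 2 (0.206), budesonide 3 (0.0657), the second library of both compounds (0.0506), or control 3 and budesonide 3 (0.134), with only the groups compared (0.0859), and with limma-voom in place of edgeR (0.0529). H1f0, which like H1f10 lies outside the clusters, had groups that did not overlap but did not pass the test (1.53-fold, log2 0.62 ± 0.22 SE, adjusted p = 0.093, edgeR). H1f4 had 24.1, 16.6 and 32.7 CPM with budesonide, all below control, and did not pass either (log2 -0.77 ± 0.29 SE, adjusted p = 0.12).

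The makeup of the linker histone counts differed between groups. Of the H1 counts in control libraries, H1f2 took 26.6% ± 2.66 (SD, n = 3), against 12.8% ± 0.444 after proline, 17.7% ± 1.42 after budesonide and 14.3% ± 4.19 after both. Its control libraries lay above all 9 others. In the same order of groups, the shares of H1f10 were 23.9% ± 4.001, 28.3% ± 7.55, 37.0% ± 8.64 and 40.0% ± 2.82. Those of H1f4 were 23.7% ± 4.42, 35.4% ± 7.53, 12.8% ± 3.79 and 18.5% ± 6.31, the proline libraries lying above all others. H1f0 took 20.5% ± 1.46, 14.2% ± 1.35, 28.9% ± 3.70 and 23.5% ± 2.05. Shares of 1 total move against each other, and no test was run on them.

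**Figure D4:**
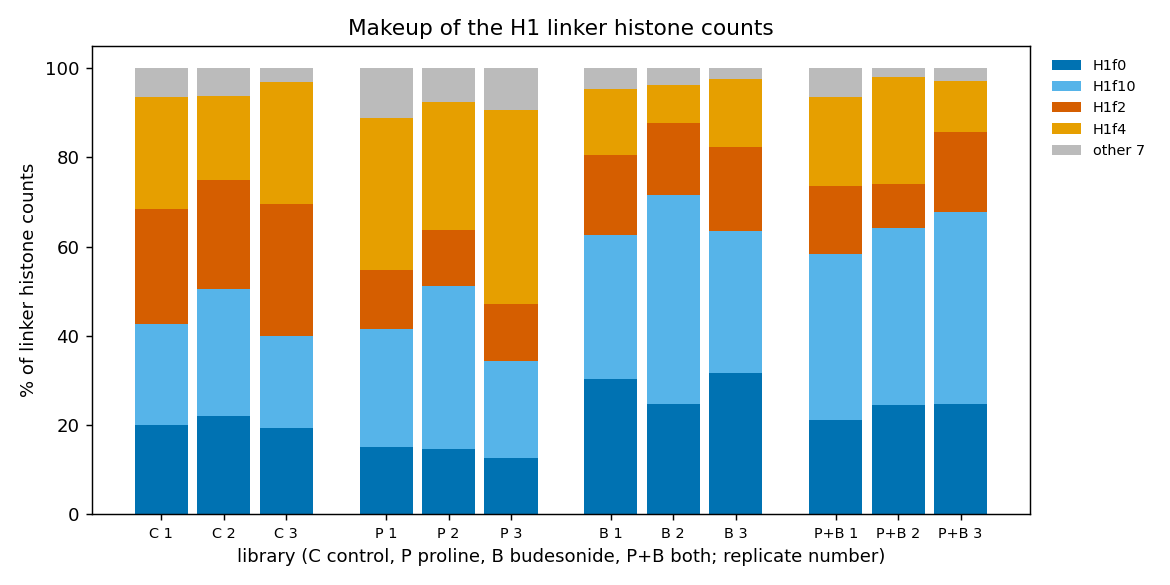
Share of the H1 counts (y axis, %) taken by the 4 most counted linker genes and by the other 7 together, in each of the 12 libraries (x axis). H1f2 takes 24.3% to 29.5% in control libraries and at most 19.0% in treated ones, and H1f4 takes 28.6% to 43.5% with proline.

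Budesonide on top of proline lowered 1 of the 32 genes, H1f4, and raised none (3.12%; 10.1% of all genes were called, 4.27% lower and 5.83% higher). With both compounds H1f4 stood at 22.0, 30.6 and 13.5 CPM, below all 3 proline libraries. The fall was 2.10-fold (log2 -1.07 ± 0.29 SE, adjusted p = 0.0204, edgeR; range 7.96e-04 to 0.114). It ended without proline 1 (0.0580), proline 3 (0.108), or the first (0.0694) or the third (0.114) library of both compounds, and the count of H1f4 is uncertain as said. For the genes called lower with proline, the changes did not pass the test: H2bc4 differed by 0.31 ± 0.17 (log2 ± SE, 95% interval -0.04 to 0.66, adjusted p = 0.28, edgeR) and H1f2 by 0.00 ± 0.25 (-0.51 to 0.52, adjusted p = 0.99). H1f0 was higher in each library given both than in any given proline alone, without passing the test (log2 0.60 ± 0.22 SE, adjusted p = 0.091, edgeR). Groups did not overlap for 7 of the 32 genes (31.9% of all genes). H1f0 and H4c2 were higher with both, and H1f1, H1f4, H1f5, H2bc12 and H3c3 were lower. H1f1 passed the filter on low counts only because of its proline libraries, so its lower value is partly set by the filter.

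Both compounds against control lowered 3 genes, H2bc4, H1f2 and H4c9, and raised none (9.38%; 7.17% of all genes were called, 3.83% lower and 3.34% higher). H2bc4 was 4.13-fold lower (log2 -2.05 ± 0.17 SE, adjusted p = 6.08e-08, edgeR; range 1.08e-28 to 6.68e-06) and H1f2 2.81-fold lower (log2 -1.49 ± 0.25 SE, adjusted p = 4.88e-04; range 5.59e-07 to 0.00733). H4c9 was 2.86-fold lower (log2 -1.52 ± 0.40 SE, adjusted p = 0.0209, edgeR; range 0.00555 to 0.104), a call that ended without control 1 (0.0999), control 3 (0.0612), or the first (0.0820) or the third (0.104) library of both compounds. The median over the 32 was -0.78, with 25 below 0, against 0.01 over all genes. Over tested genes of at most 1000 nt the median was -0.19, and over those above 8000 nt it was 0.07. The part of transcript length in the histone median was not tested. Groups did not overlap for 10 of the 32 (28.4% of all genes), all 10 lower. Among the 10, H2bc21, H4c11 and H3c15 passed the filter on low counts only because of their control libraries. Their lower values, also counted in the 25, are thus partly set by the filter. H4c8 (28, 43 and 68 counts in control, 1, 14 and 0 with both) and H2bc21 (12, 13 and 11 counts in control, none with both) were among the 10 without passing the test (adjusted p = 0.11 and 0.12, edgeR). H1f4 was 1.91-fold lower at an adjusted p of 0.057 (range 0.00840 to 0.243). The untreated control libraries enter this comparison as well as those of each compound alone, so their falls are not independent.

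Proline on top of budesonide lowered 3 genes, H2bc4, H1f2 and H1f0, and raised none (9.38%; 1.47% of all genes were called, 0.592% lower and 0.874% higher). H2bc4 was 2.78-fold lower than with budesonide alone (log2 -1.48 ± 0.17 SE, adjusted p = 2.61e-05, edgeR; range 4.16e-14 to 6.33e-04). H1f0 was 1.99-fold lower (log2 -0.99 ± 0.22 SE, adjusted p = 0.0220, edgeR; range 9.08e-04 to 0.140), a call that ended without budesonide 3 (0.118), the first (0.140) or the third (0.0808) library of both compounds, or control 3 and budesonide 3 (0.0613). H1f2 was 2.03-fold lower (log2 -1.02 ± 0.25 SE, adjusted p = 0.0367, edgeR; range 0.00487 to 0.186). It ended without control 1 (0.0524), control 2 (0.0550), proline 3 (0.0503), budesonide 2 (0.0640), budesonide 3 (0.146), the first (0.137) or second (0.186) library of both compounds, or control 3 and budesonide 3 (0.0870), and with only the groups compared (0.0906). This comparison shares no library with proline against control, and in both the same 3 genes, H2bc4, H1f2 and H1f0, were called lower. The 2 comparisons are still not fully independent, since 1 fit estimates the spread over all 12 libraries. Of the 3 genes, only H2bc4 was kept under all 21 alternatives in both comparisons. H4c9 was not lowered further (log2 0.29 ± 0.40 SE, adjusted p = 0.84). Groups did not overlap for 8 of the 32 genes (19.4% of all genes).

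The difference between these 2 proline effects, the interaction, passed the test for 0 of the 32 histone genes (0.469% of all genes were called, 0.411% higher and 0.0578% lower), and 2 had an unadjusted p below 0.05 in edgeR. DESeq2 and edgeR without a filter on low counts each called 1, H2bc4. The H2bc4 fall was smaller in the presence of budesonide by 0.88 ± 0.23 (log2 ± SE, 95% interval 0.40 to 1.37, adjusted p = 0.12, edgeR; range 0.0282 to 0.393). For H4c9 the difference was 1.77 ± 0.56 (0.61 to 2.94, adjusted p = 0.26), for H1f2 0.48 ± 0.34 (-0.24 to 1.19, adjusted p = 0.79) and for H1f0 -0.02 ± 0.31 (-0.67 to 0.63, adjusted p = 0.99).

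**Figure D5:**
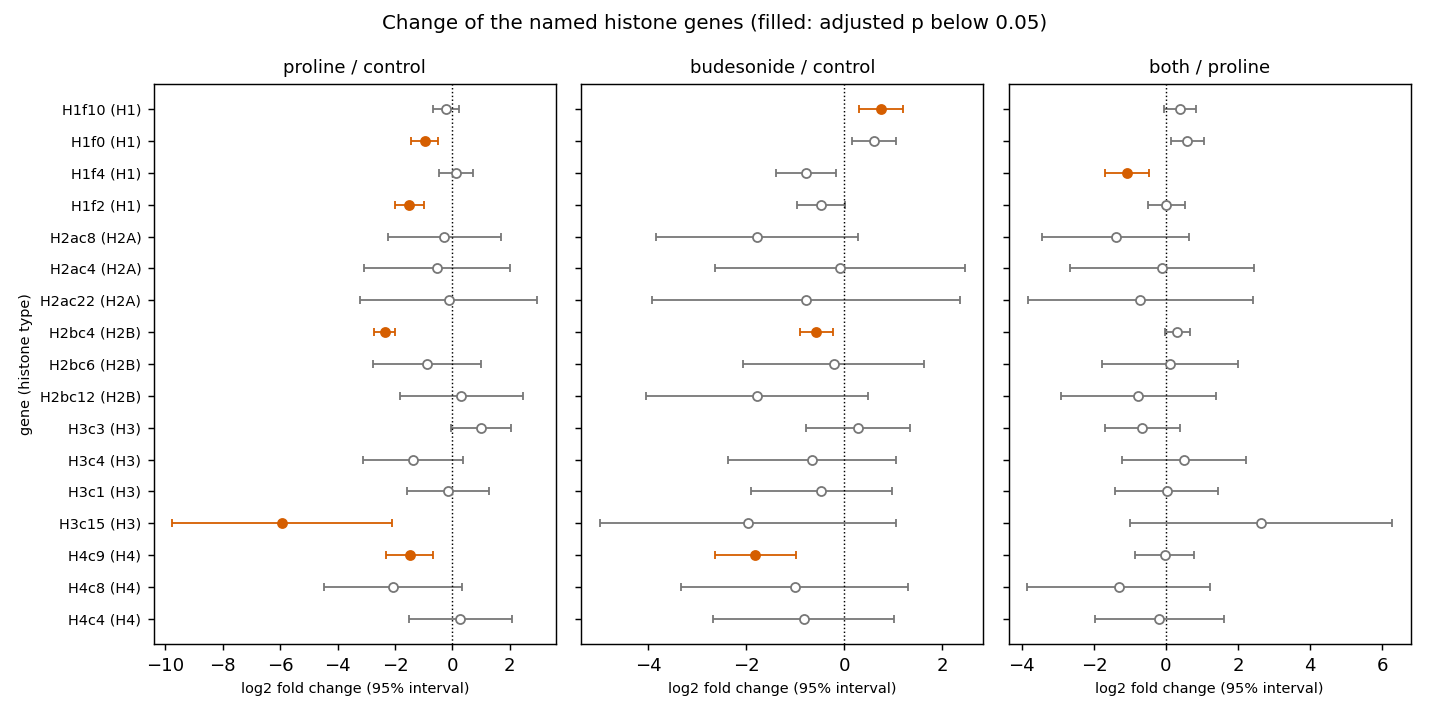
Log2 fold change (x axis) with its 95% interval for the named histone genes (y axis) in 3 comparisons, filled where the adjusted p was below 0.05; the x axes differ between panels. The intervals of the low H2A, H2B and H3 genes are several log2 units wide, while those of H2bc4, H1f0, H1f2 and H1f10 are narrow.

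The classes of 3′ end did not change alike. Genes with no stem-loop in the longest annotated transcript summed to 273 ± 28 CPM (SD, n = 3) in control, 110 ± 13.8 after proline, 256 ± 15.3 after budesonide and 130 ± 13.3 after both. H2bc4 carried the proline difference: without it the sums were 96.0 ± 12.8, 75.9 ± 11.9, 136 ± 20.0 and 86.7 ± 12.7, with proline overlapping control and budesonide above it. Genes whose transcripts run on past the stem-loop summed to 151 ± 17.9, 93.7 ± 18.1, 85.6 ± 8.96 and 65.6 ± 9.21 CPM, and each treated group lay below control. Genes whose annotation ends within 100 nt of the stem-loop summed to 31.0 ± 6.05, 30.6 ± 4.30, 20.3 ± 7.78 and 24.8 ± 2.09 CPM, and every treated group overlapped control.

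The promoters of 4 linker genes are printed because H1f2 and H1f4 lie in the same cluster and differed with proline, and H1f0 and H1f10 lie outside it. They are the 250 bases before the annotated start (RefSeq, GRCm38.p6), with motifs in capitals.
H1f2 promoter, chr13:23738557-23738806, plus strand: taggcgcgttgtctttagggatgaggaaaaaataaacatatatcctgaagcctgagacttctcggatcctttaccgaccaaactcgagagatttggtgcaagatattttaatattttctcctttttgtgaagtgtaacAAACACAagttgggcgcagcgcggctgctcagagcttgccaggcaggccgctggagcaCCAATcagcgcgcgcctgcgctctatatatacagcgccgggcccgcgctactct
H1f4 promoter, chr13:23622559-23622808, minus strand: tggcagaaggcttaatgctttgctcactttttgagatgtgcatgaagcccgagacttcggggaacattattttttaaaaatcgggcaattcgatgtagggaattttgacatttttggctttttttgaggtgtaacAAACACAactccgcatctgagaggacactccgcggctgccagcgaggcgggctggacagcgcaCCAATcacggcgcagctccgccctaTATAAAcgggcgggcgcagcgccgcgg
H1f0 promoter, chr15:79027962-79028211, plus strand: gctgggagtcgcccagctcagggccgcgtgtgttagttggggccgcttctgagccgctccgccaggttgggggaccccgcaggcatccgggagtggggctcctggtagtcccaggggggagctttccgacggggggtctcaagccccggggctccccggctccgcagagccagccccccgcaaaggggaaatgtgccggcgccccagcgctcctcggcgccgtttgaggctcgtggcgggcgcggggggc
H1f10 promoter, chr6:87981483-87981732, minus strand: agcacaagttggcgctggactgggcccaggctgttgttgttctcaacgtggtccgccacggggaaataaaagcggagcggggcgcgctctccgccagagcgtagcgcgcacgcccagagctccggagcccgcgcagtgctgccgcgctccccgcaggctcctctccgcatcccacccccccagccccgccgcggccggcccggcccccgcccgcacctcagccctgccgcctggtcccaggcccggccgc
The motifs were searched on both strands and do not overlap in these sequences. CCAAT is the box bound by NF-Y. TATAAA is a TATA box. AAACACA is the element typical of H1 promoters. ATTTGCAT is the octamer bound by Pou2f1. H1f2 held AAACACA at -112 and CCAAT at -54, and H1f4 held AAACACA at -115, CCAAT at -52 and TATAAA at -27. The H1f2 window also reads tatatata between its CCAAT and the annotated start, which the exact search for TATAAA did not mark. The search thus does not show that H1f2 lacks a TATA box. None of the 4 motifs stood in the windows of H1f0 and H1f10. These windows rest on RefSeq starts that differ from those of the GENCODE transcripts used for the 3′ ends. The GENCODE start lies downstream of the window for H1f0 and inside it for H1f10. Motifs near that start could be missed, so absence from the windows does not show absence from the promoters. Over the 63 histone promoters listed, for 62 of the 70 genes, CCAAT stood in 79.4% (33.8% of all 32851 promoters) and TATAAA in 44.4% (12.4%). AAACACA stood in 5 of 10 H1 promoters (6.25% of all) and ATTTGCAT in 7 of 15 H2B promoters (1.60% of all).

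A list of 14 histone variants held 11 that were tested, from 4.17 CPM (Macroh2a2) to 613 CPM (H2ax) in the mean of the 12 libraries. Most are made from tailed RNA throughout the cell cycle. H2aw and H2bu2 belong to a small cluster of their own. Whether any of the 11, H2ax among them, also make RNA that ends at a stem-loop was not examined. With proline 3 of the 11 fell and none rose (27.3%; 7.88% of all genes were called, 4.71% lower): H2ax, the variant phosphorylated at DNA breaks, H2aj and H2aw. H2ax stood at 757, 790 and 674 CPM in control and 590, 528 and 513 with proline, without overlap (log2 -0.44 ± 0.11 SE, adjusted p = 0.0119, edgeR). The H2ax call ended without control 2 (0.0749) or proline 3 (0.0682) and with a transcript length offset (0.107). H2aw stood at 17.8, 18.7 and 14.7 CPM and at 2.55, 3.996 and 8.61 (log2 -1.78 ± 0.44 SE, adjusted p = 0.0119; ended without proline 1, 0.0820, or proline 2, 0.0541). H2aj fell by 0.54 on the log2 scale (adjusted p = 0.0481, range 0.0220 to 0.189), a call that leaving out any 1 of the 6 libraries ended (0.0651 to 0.189). The H2aj call was kept under only 7 of 21 alternatives. The H3.3 genes H3f3a (log2 -0.04, adjusted p = 0.96) and H3f3b (-0.08, 0.75), H2az1 (0.28, 0.28), H2az2 (-0.33, 0.075), Cenpa of the centromere (0.35, 0.20), Macroh2a1 (0.06, 0.89), Macroh2a2 (-0.59, 0.74) and H2bu2 (-0.67, 0.76) did not pass the test.

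With budesonide 0 of the 11 variants were called by edgeR, limma-voom or DESeq2, and 0 had an unadjusted p below 0.05 in edgeR. With both against proline, Macroh2a1 (macroH2A1, linked to silent chromatin) and H2az2 rose and none fell (18.2%; 10.1% of all genes). Macroh2a1 stood at 75.9, 70.0 and 82.0 CPM with proline and 132, 146 and 157 with both (log2 0.93 ± 0.15 SE, adjusted p = 1.8e-04, edgeR; called under all 21 alternatives). H2az2 rose by 0.48 ± 0.11 (log2 ± SE, adjusted p = 0.0072; ended without proline 2, 0.0576, or the first library of both compounds, 0.0512). With both against control Macroh2a1 rose, and H2ax, H2aj and H2aw fell (36.4%, against 7.17% of all genes). The H2aj call ended without control 1 (0.0610) or the first library of both compounds (0.102). The H2aw call ended without control 1 (0.0829), control 2 (0.0993) or any 1 library of both compounds (0.0604 to 0.140), and with the replicate block (0.0529). Against budesonide alone, Macroh2a1 rose with both (log2 0.72, adjusted p = 0.0139, edgeR) and H2ax fell (-0.43, 0.0474). This was 18.2% of the variants, against 1.47% of all genes. The Macroh2a1 call was kept under 17 of 21 alternatives and ended, among others, with a transcript length offset (0.0825). The H2ax call was kept under 6 of 21.

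Of 18 genes that form the histone 3′ end or degrade its RNA, 3 rose and 1 fell with proline (22.2%; 7.88% of all genes), and 2 rose and 1 fell with budesonide (16.7%; 6.51% of all genes). The medians were 0.28 and -0.01 (log2), against -0.01 and 0.01 over all genes. Slbp, which binds the stem-loop, stood at 14.6, 11.6 and 8.17 CPM in control and 26.7, 22.2 and 27.5 with budesonide, without overlap (log2 1.16 ± 0.33 SE, adjusted p = 0.0343, edgeR; range 0.0136 to 0.205, ended without control 2, 0.0953, control 3, 0.144, budesonide 1, 0.0838, or budesonide 3, 0.0826, and 0.205 without control 3 and budesonide 3). The Slbp call also ended with the replicate block (0.0568) and with only the groups compared (0.0545). With proline Slbp stood at 9.16, 13.2 and 18.8 CPM, which overlaps control. Casp8ap2 (FLASH, needed for the cut) stood at 77.9, 59.6 and 52.9 CPM in control and 31.1, 40.3 and 38.8 with proline (log2 -0.79 ± 0.21 SE, adjusted p = 0.0167; ended without control 1, 0.129, or proline 1, 0.105). Zfp473, a U7 complex protein, was lower with both than in control (log2 -1.12 ± 0.29 SE, adjusted p = 0.0199, range 0.00442 to 0.105; ended without control 3, 0.101, or the second, 0.0660, or the third, 0.105, library of both compounds, or without control 3 and budesonide 3, 0.0627).

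Of 13 genes for histone gene transcription, Ccne1, the cyclin that drives entry to S phase, was called with proline (log2 0.67 ± 0.11 SE, adjusted p = 2.64e-04, edgeR; 7.69% against 7.88% of all genes), and Pou2f1 (Oct1) with budesonide (7.69% against 6.51%; log2 0.57 ± 0.12 SE, adjusted p = 0.00419; ended with a transcript length offset, 0.191). Npat, the coactivator of histone clusters, ran from 25.9 to 73.0 CPM and was not called. Of 24 histone chaperones, 6 rose and 1 fell with proline (29.2%; 7.88% of all genes), among them Chaf1b of the chromatin assembly factor (log2 0.93 ± 0.19 SE, adjusted p = 0.00237) and Nap1l1 (0.82 ± 0.10, adjusted p = 4.91e-06). With both against proline 2 rose and 9 fell (45.8%; 10.1% of all genes), Supt16, a subunit of the FACT complex, among the latter (log2 -0.80 ± 0.18 SE, adjusted p = 0.00572; ended without proline 3, 0.0597, or the second library of both compounds, 0.0505). Of 30 S phase and DNA replication genes, 3 rose and 2 fell with proline (16.7%; 7.88% of all genes), at a median of 0.17 against -0.01 over all genes. Pcna, the replication clamp, rose by 0.65 ± 0.16 (log2 ± SE, adjusted p = 0.0114; ended without control 2, 0.0865, or proline 3, 0.0857), and Pola1, a DNA polymerase subunit, fell by 0.69 on the same scale (adjusted p = 0.00502).

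Of the RNAs without a poly(A) tail, 5 of 13 were tested. With proline mt-Rnr1 (log2 -0.43 ± 0.12 SE, adjusted p = 0.0282, range 0.00128 to 0.190, ended without control 1, control 2, proline 2 or proline 3) and Rny1 (-0.93 ± 0.27, adjusted p = 0.0344, range 0.0111 to 0.667, kept under 8 of 21 alternatives and ended without control 1, control 3, proline 1, 2 or 3, the first or second library of both compounds, or control 3 and budesonide 3, 0.0582) fell and none rose, in the libraries in which H2bc4 and H1f2 were low (40% of the 5, against 7.88% of all genes). The mt-Rnr1 call with proline also ended with a transcript length offset (0.190). Rny1 stood at 24.5, 17.9 and 23.1 CPM in control, 13.5, 9.92 and 11 with proline and 19.5, 24.1 and 19.3 with both. It was called higher with both than with proline (log2 0.87, adjusted p = 0.0407, range 0.0170 to 0.199, kept under 8 of 21 alternatives). The mitochondrial ribosomal RNA mt-Rnr1 was also lower than control with budesonide (log2 -0.51, adjusted p = 0.0106, range 5.19e-05 to 0.281; ended without control 2, 0.0765, and with a transcript length offset, 0.281) and with both (-0.44, adjusted p = 0.0268, range 8.82e-04 to 0.162; ended without control 1, 0.0883, control 2, 0.154, or the third library of both compounds, 0.157, with a transcript length offset, 0.162, and with only the groups compared, 0.0772). Rn18s changed by 0.17 (adjusted p = 0.80) with proline and 0.70 (adjusted p = 0.096) with budesonide, and was higher with both than in control (0.81, adjusted p = 0.0497, range 1.85e-20 to 0.277, kept under 10 of 21 alternatives and ended without any 1 control library, proline 3, budesonide 1 or the first or second library of both compounds). Terc had no count, and Rmrp and Rpph1 stayed at or below 0.923 CPM. The part of these RNAs in the histone changes was not tested.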

How the data were processed

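The authors deposited whole-number counts per gene symbol for the 12 libraries; a second deposited table of normalised signal, the counts over a size factor, was not needed for any test. Per the labels' protocols, libraries came from a 3′ end kit for polyadenylated RNA. Tools in the submitters' processing notes, listed without a role, are STAR 2.7.5c, featureCounts 2.0, cutadapt 2.5, bcl2fastq and DESeq2, with build GRCm39. Of the annotation, strand setting and treatment of shared reads, nothing is given in the sources used here.

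The test was edgeR 4.0.16 in R 4.3.3 (filterByExpr, minimum count 10 and minimum total 15, TMM, quasi-likelihood F test, two-sided, 12 libraries, 1 coefficient per group, 8 residual degrees of freedom), with p-values adjusted over 13852 genes and calls at an adjusted p below 0.05. SE was worked back from F. CPM used TMM-scaled totals of libraries of 5.30 to 15.9 M counts; intervals on counts cover counting error only. Sums by type, 3′ end or share carry no test. Alternatives were DESeq2 1.42.0 (its size factors and its test), total counts, no filter, a length offset, a replicate block, only the groups compared, limma-voom (limma 3.58.1) and left-out libraries. The tests were checked on simulated data.

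Named were histone genes called in any comparison or among the 3 most counted of a type, tested variants, RNAs without a tail, and the 2 largest called changes of each list of other genes per comparison; not every gene so named is printed, and cell type markers are given only as a check of the culture. H2bc21, Nanog and Npat were named after their values were seen. The genes and lists were chosen with earlier results of these data known.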

Additional observations from a re-analysis of the deposited data

How the results depend on the processing

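Of the 15 calls of histone genes, 6 were kept under all 21 alternatives (H2bc4 in the 3 comparisons that differ by proline or set both compounds against control, H1f2 with proline and with both against control, and H1f0 with proline), and none reversed. Leaving out 1 library at a time gave 3 to 5 calls for proline (5 in the whole set), 1 to 3 for budesonide (3), 0 to 1 for both against proline (1), 3 to 5 for both against control (3) and 1 to 3 for both against budesonide (3). Without control 3 and budesonide 3 there were 0 calls for budesonide and 1 for both against budesonide. Only the groups compared gave 1 call for budesonide, and 5 for both against control, as did no filter and DESeq2; these last 2 also gave 1 for the interaction. The same numbers 1 to 3 did not pair libraries: the correlation of deviations between same-numbered libraries ran from -0.07 to 0.05, and 3 of 12 libraries correlated best with their own number. With the replicate block 5, 3, 1, 4, 3 and 0 genes were called in the 6 comparisons.

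Leaving out the most counted gene of each type moved the log2 ratios of the sums. For proline they became -0.10 (H2B), -0.78 (H3), -0.73 (H4) and -0.51 (all). For budesonide they became -0.16 (H1), -0.46 (H2A), -0.89 (H2B) and -0.76 (H3). For both against proline they became -0.40 (H1), -0.48 (H2B) and -0.32 (all), and against control -0.92 (H1), -0.58 (H2B), -0.65 (H3) and -0.83 (all). For both against budesonide the H2B ratio reversed to 0.31, and that of all became -0.47. The budesonide ratio of all was -0.24 with unscaled totals, and that of H4 ran from -2.13 (without budesonide 2) to -1.19 (without budesonide 1) when 1 library was left out. The other 305 alternative values of the sums moved by less than 1 SD. Depth limits the low genes: 38 of 70 could not be tested. The cause of these shifts was not tested beyond the genes or libraries left out.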
